A study of Mus musculus with 9 samples.

Results

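The macrophage genes Adgre1, Cd68, Csf1r, Mrc1, Cd163, C1qa, C1qb and C1qc, together with Arg1 and Nos2, the pair of arginine-consuming enzymes often used to tell macrophage states apart, were followed in mouse back skin. These 10 genes were picked by gene symbol from the 29205 genes of the deposited table, and all 10 were found and passed the filter on low counts in every comparison. The study treated imiquimod (IMQ) psoriasis-like mice with longkui yinxiao soup (LYS), a herbal decoction, and sequenced total RNA of back skin from 3 groups with 3 libraries each. All mice were male BALB/c animals 6 to 8 weeks old whose backs had been shaved and depilated, the controls included. Control mice received no IMQ, whereas the IMQ and LYS-High mice received 62.5 mg of 5% IMQ cream a day for 5 days, and skin was taken on day 13. The LYS-High mice also received LYS by gavage, at the higher of the doses the study gave according to its methods, since the sample labels name the treatment without a dose. The labels number the libraries but do not say whether they came from separate mice, so that the p-values measure the spread between these skin samples, which may be partly technical.

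Macrophages of the dermis arise from embryonic precursors and from blood monocytes, and depend on signals through the receptor encoded by Csf1r. Resident cells clear debris through scavenger and lectin receptors and make C1q, the recognition molecule of the classical complement pathway, whereas cells that enter inflamed skin can take on other programmes. Imiquimod activates Toll-like receptors, and mouse skin painted with it develops a lesion with thickened epidermis and infiltrating leukocytes. Arginase 1 turns arginine into ornithine and urea, and inducible nitric oxide synthase, encoded by Nos2, turns it into nitric oxide. In mouse macrophages they are used as markers of alternative and classical activation, but neither enzyme is restricted to macrophages, and keratinocytes can make both.

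The 3 C1q genes lie next to each other on the minus strand of chromosome 4 (GRCm38), within 18675 bases from 136880129 to 136898803. Adgre1 spans 57358691 to 57483527 on chromosome 17, Mrc1 14229392 to 14332057 on chromosome 2, Cd163 124304656 to 124330527 on chromosome 6 and Arg1 24915221 to 24927484 on chromosome 10. Cd68 (69664213 to 69666153) and Nos2 (78920787 to 78960254) are both on chromosome 11. Csf1r overlaps Hmgxb3 on the opposite strand, and the library kit does not mark strand, so reads of the overlap cannot be assigned with certainty. Hmgxb3 held 4167 counts over the 9 libraries against 40142 for Csf1r. Mrc1 contains the microRNA gene Mir511 and Csf1r contains Mir6983, and the other members overlap no annotated gene.

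Upstream sequence is shown for Mrc1, C1qb and C1qc, the members that fell under IMQ for which RefSeq gave a window free of annotated exons. Windows were matched for 5 of the 10 genes (GRCm38.p6). The core letters bound by the myeloid factor PU.1 and other ETS factors, GAGGAA or its reverse complement TTCCTC, are in capitals, and each sequence runs 5′ to 3′ on the strand of the gene up to the annotated start.
Mrc1, chr2:14229164-14229391, plus strand: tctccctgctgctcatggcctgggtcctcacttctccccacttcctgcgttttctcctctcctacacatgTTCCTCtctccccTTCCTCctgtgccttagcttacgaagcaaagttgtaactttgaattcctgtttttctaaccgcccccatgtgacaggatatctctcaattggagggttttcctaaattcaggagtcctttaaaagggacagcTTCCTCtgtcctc
C1qb, chr4:136886201-136886450, minus strand: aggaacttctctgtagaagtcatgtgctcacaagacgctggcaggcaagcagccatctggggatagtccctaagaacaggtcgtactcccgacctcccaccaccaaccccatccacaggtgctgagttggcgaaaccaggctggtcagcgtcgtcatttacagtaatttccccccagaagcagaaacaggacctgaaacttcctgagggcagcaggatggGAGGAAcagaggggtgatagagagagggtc
C1qc, chr4:136893066-136893164, minus strand: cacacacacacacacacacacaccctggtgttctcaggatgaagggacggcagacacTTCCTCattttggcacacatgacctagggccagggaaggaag
Mrc1 held the letters 3 times, C1qb and C1qc once each, and the window of Cd68 once as well, whereas that of Cd163 held none. Of 32851 RefSeq windows of 250 bases, 23.3% held them on either strand, so a match describes these letters only and names no bound site.

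The summed counts ranged from 14658645 to 19609878 a library. Levels are given as CPM, the counts scaled to a common library size, with edgeR's TMM scaling, which compares a gene between libraries, and as the authors' FPKM, which is also per length and compares genes with each other. The TMM factors were 1.10 to 1.20 in the control group, 0.79 to 0.92 in the IMQ group and 0.98 to 1.10 in the LYS-High group, and without them the median log2 fold change of all genes between IMQ and control moved from -0.06 to -0.51, that between LYS-High and IMQ from 0.04 to 0.29 and that between LYS-High and control from -0.01 to -0.15. Of the lineage genes checked beside the members, all 20 listed monocyte and macrophage genes and all 13 listed genes of resident dermal macrophages passed the filter, so RNA of such cells was present in the samples. In bulk skin, fewer cells of a type and less RNA per cell cannot be told apart. The library LYS-High 1 stood apart from the other LYS-High libraries in most of these genes, and the edgeR calls that rest on it are given with and without it. Correlations were computed with it only.

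**Figure D1:**
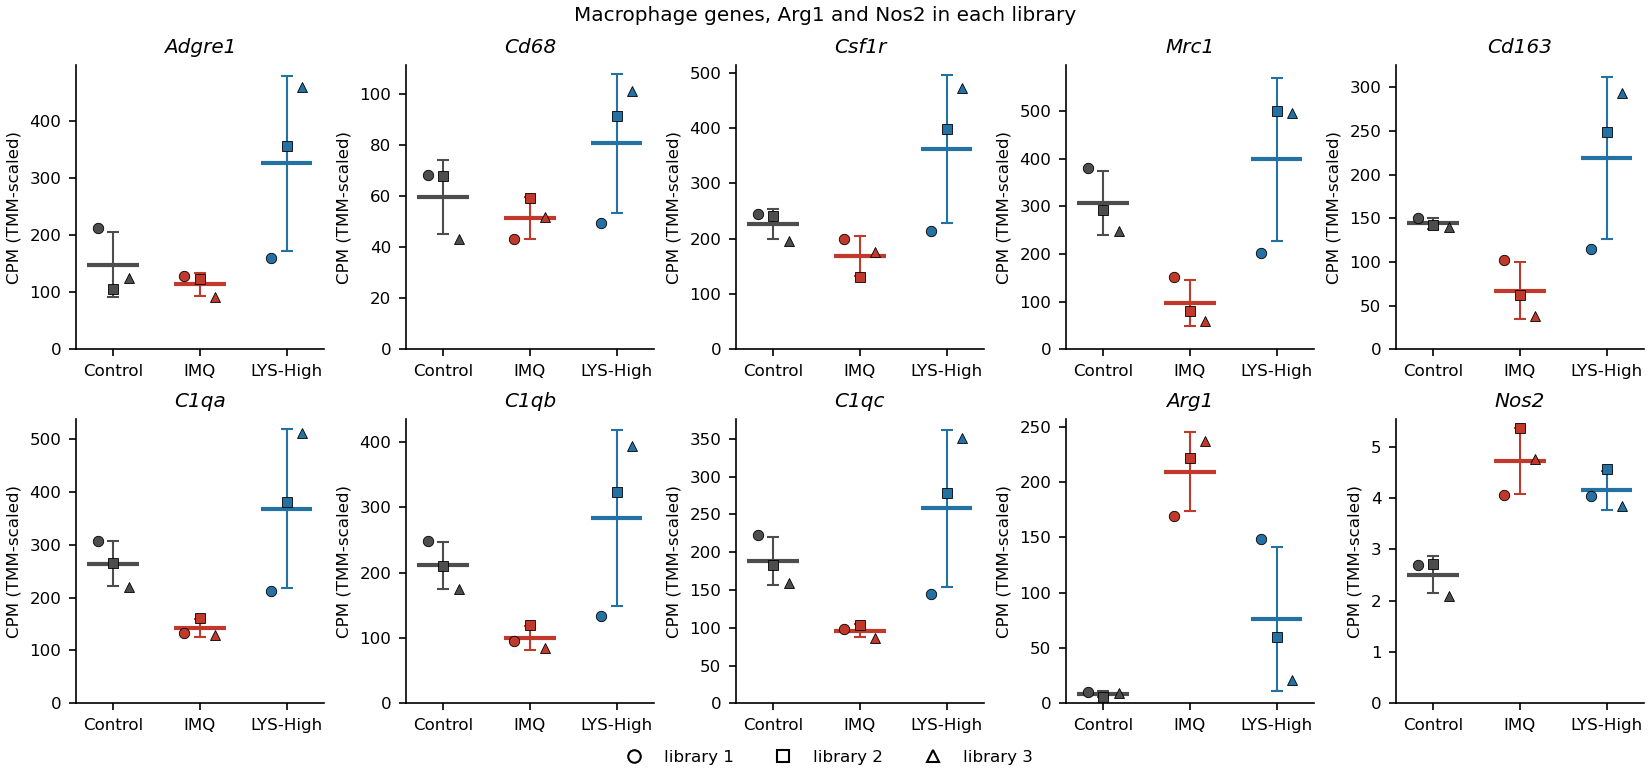
Level of each of the 10 genes in the 9 libraries, in TMM-scaled CPM on linear axes from 0, with a horizontal line at the group mean and bars of 1 SD (n = 3). For Mrc1, Cd163 and the C1q genes the IMQ libraries lie below all controls, for Arg1 they lie above, and LYS-High 1 (blue circle) is the lowest of its group for all 8 macrophage genes and the highest for Arg1.

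In control skin the C1q genes led on the FPKM scale, with a mean of 291 FPKM for C1qa, 222 FPKM for C1qb and 112 FPKM for C1qc. The receptors formed a middle tier in the controls, with mean FPKM of 55.3 for Mrc1, 54.3 for Cd68, 52.6 for Adgre1, 45.0 for Csf1r and 30.3 for Cd163. Arg1 and Nos2 were the lowest, at 4.46 and 0.646 FPKM. The ranges of C1qa and C1qb overlapped, as did those of each neighbouring pair among Mrc1, Cd68, Adgre1 and Csf1r, and the remaining neighbours in this order did not overlap. In IMQ skin Arg1 rose to second place with a mean of 78.0 FPKM, between C1qa (114 FPKM) and C1qb (76.5 FPKM), and its range overlapped that of C1qb but not that of C1qa. In LYS-High skin every neighbouring pair overlapped from C1qa (376 FPKM) down to Arg1 (34.5 FPKM), and only Nos2 (0.977 FPKM) stood clear of the gene above it.

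The first question was what IMQ did to these genes. The macrophage genes Mrc1, Cd163, C1qa, C1qb and C1qc, fell to between 3.16-fold and 1.88-fold lower levels, Arg1 rose 24.2-fold and Nos2 rose 1.87-fold. Adgre1, Cd68 and Csf1r did not pass the thresholds. In all, 7 of the 10 genes were called by the quasi-likelihood test of edgeR after Benjamini-Hochberg adjustment, for which the adjusted p had to be below 0.05 and the log2 fold change beyond 0.58 in either direction. Among the 15976 genes tested, 51.0% were called (24.1% up and 26.9% down), so a call alone did not set the members apart from the tissue. For 5 lower members and 2 higher ones the groups did not overlap in CPM, as for 35.9% and 34.1% of all genes tested. The median log2 fold change of the 10 was -0.67, against -0.06 over all genes tested.

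Mrc1, which encodes the mannose receptor CD206, stood at 381, 293 and 249 CPM in control libraries 1 to 3, at 151, 80.0 and 60.7 CPM in the IMQ libraries and at 201, 499 and 495 CPM in the LYS-High libraries. All IMQ libraries were below all controls, and IMQ 1 was the highest of them. The fold change between IMQ and control was -1.66 on the log2 scale (SE 0.33; edgeR, adjusted p = 0.00318). Cd163, the scavenger receptor for haptoglobin-bound haemoglobin, was at 151, 142 and 140 CPM in the controls, at 102, 61.9 and 38.2 CPM under IMQ and at 115, 248 and 293 CPM in the LYS-High libraries. Its control values were close together, and those of IMQ were lower and more spread. The log2 fold change was -1.10 (SE 0.31; edgeR, adjusted p = 0.0148), and the call was lost without IMQ 2, with an adjusted p of 0.0554 from edgeR.

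The C1q chains, which assemble into 1 recognition molecule, fell together. C1qa was at 307, 266 and 220 CPM in the controls, 134, 161 and 130 CPM under IMQ and 213, 380 and 512 CPM in the LYS-High libraries. C1qb was at 248, 211 and 175 CPM in the controls, 96.0, 119 and 83.9 CPM under IMQ and 134, 323 and 394 CPM in the LYS-High libraries. C1qc was at 222, 184 and 159 CPM in the controls, 99.1, 104 and 86.1 CPM under IMQ and 145, 278 and 351 CPM in the LYS-High libraries. For each chain every IMQ library lay below every control and every LYS-High library, and LYS-High 1 lay below the controls. The log2 fold changes between IMQ and control were -0.91 for C1qa, -1.09 for C1qb and -0.97 for C1qc (SE 0.15, 0.17 and 0.15; edgeR, adjusted p = 0.00142, 0.00102 and 8.1e-04).

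The proportions of the chains moved little while their sum changed. Of the summed FPKM of the 3 chains, C1qa made up a mean of 47.9% over the 9 libraries (45.3% to 50.8%), C1qb 34.2% (30.5% to 36.8%) and C1qc between 16.9% and 19.1%. The sum itself was 729, 601 and 545 FPKM in the controls, 246, 252 and 199 FPKM in the IMQ libraries and 394, 853 and 1138 FPKM in the LYS-High libraries. It thus spanned a wider range within LYS-High than across the control group.

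The general macrophage genes showed smaller differences under IMQ. Adgre1, which encodes the F4/80 antigen, was at 213, 107 and 125 CPM in the controls, 128, 123 and 91.4 CPM under IMQ and 160, 357 and 460 CPM in the LYS-High libraries. Cd68, a lysosomal glycoprotein of phagocytes, was at 68.3, 68.0 and 43.1 CPM in the controls, 43.1, 59.2 and 52.0 CPM under IMQ and 49.5, 91.3 and 101 CPM in the LYS-High libraries. Csf1r, the receptor for CSF1 and IL-34, lies on chromosome 18 from 61100598 to 61132149 and was at 244, 240 and 196 CPM in the controls, 200, 130 and 177 CPM under IMQ and 215, 399 and 473 CPM in the LYS-High libraries. In all 3 genes the control and IMQ libraries overlapped in CPM, and Control 1 was the highest of both groups. Their log2 fold changes were -0.38, -0.23 and -0.43 (SE 0.26, 0.19 and 0.18; edgeR, adjusted p = 0.232, 0.339 and 0.0722). These calls depended on scaling, since without TMM factors all 3 were called lower, at log2 fold changes of -0.82, -0.68 and -0.86, and 9 members were called, 8 down and 1 up, beside 57.9% of all genes (42.9% down).

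Arg1 and Nos2 went the other way. Arg1 was at 10.7, 5.82 and 9.35 CPM in the controls, at 169, 222 and 237 CPM under IMQ and at 148, 59.6 and 20.8 CPM in the LYS-High libraries. The IMQ libraries were close together and far above the controls, and the LYS-High libraries were spread between both groups. Its log2 fold change under IMQ was 4.59 (SE 0.25; edgeR, adjusted p = 1.2e-05). Nos2 was at 2.70, 2.73 and 2.09 CPM in the controls, 4.07, 5.36 and 4.76 CPM under IMQ and 4.05, 4.58 and 3.84 CPM in the LYS-High libraries. These levels rested on 43 to 81 counts a library, and the control libraries lay below all others. Nos2 rose by a log2 fold change of 0.90 (SE 0.24; edgeR, adjusted p = 0.0117), but only 0.45 without TMM factors, where it was not called.

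**Figure D2:**
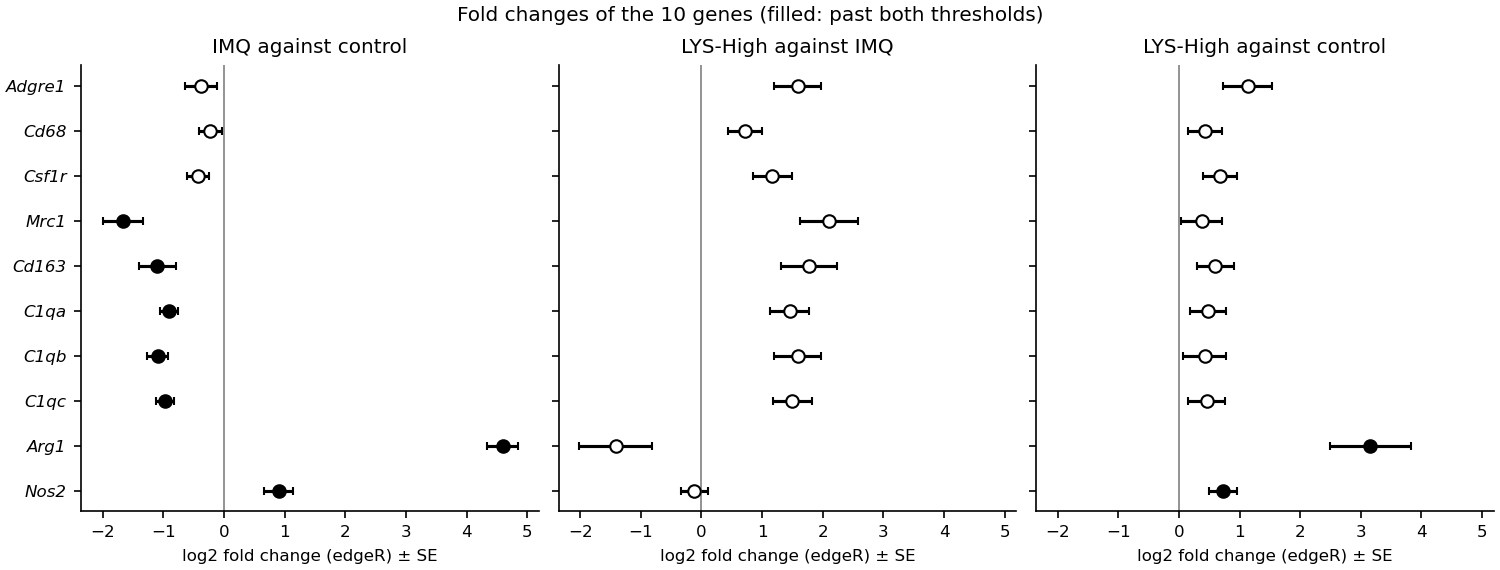
Log2 fold change of each gene with its SE from edgeR in the 3 comparisons, each fitted on 3 against 3 libraries and drawn on the same axis, with filled points past both thresholds. Between LYS-High and IMQ no point is filled, although all 8 macrophage genes lie above 0 and Arg1 below it.

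The second question was how LYS-High skin differed from IMQ skin. All 8 macrophage genes had higher means in the LYS-High group, by log2 fold changes from 0.72 for Cd68 to 2.10 for Mrc1, and Arg1 had a lower mean (-1.41). None of the 10 was called by edgeR, and neither was any of the 15460 genes tested (0.00%), the smallest adjusted p in the table being 0.0591. At an unadjusted p under 0.05, 8 of the 10 passed, the macrophage genes, all higher, beside 35.2% of all genes tested (19.3% higher). DESeq2 called 8 members, 7 macrophage genes up and Arg1 down. Beside them it called 21.0% of the 15752 genes to which it gave an adjusted p (12.3% up and 8.75% down). The groups did not overlap in CPM for 7 members that were higher (all macrophage genes but Cd68) and 1 that was lower (Arg1), where 16.8% and 22.1% of all genes tested did so in these directions.

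The size of these differences can be read from the fits. Mrc1 differed by 2.10 on the log2 scale (SE 0.47), Cd163 by 1.77 (SE 0.46) and Adgre1 by 1.59 (SE 0.39), with adjusted p of 0.0591, 0.0636 and 0.0606 from edgeR. C1qa, C1qb and C1qc differed by 1.45, 1.59 and 1.50 (SE 0.32, 0.39 and 0.32), Csf1r by 1.17 (SE 0.33) and Cd68 by 0.72 (SE 0.28). The spread within LYS-High was wide, with a coefficient of variation of CPM from 33.9% for Cd68 to 47.4% for C1qb among the macrophage genes, and 85.7% for Arg1. The corresponding values in IMQ were 9.55% for C1qc and 17.0% for Arg1, but 49.0% for Mrc1 and 48.1% for Cd163.

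The calls between LYS-High and IMQ depended on single libraries and on the settings of the fit. Without LYS-High 1, edgeR called 9 of the 10 genes, the 8 macrophage genes up and Arg1 down (log2 fold change -2.31), beside 26.8% of all genes (14.9% up and 11.9% down). Without IMQ 1, the IMQ library with the highest Mrc1 and Cd163, these 2 genes were called up, beside 11.8% of all genes (6.80% up). Leaving out any other library called none. With all 9 libraries in 1 fit, or without the filter on low counts, 7 macrophage genes were called up, Cd68 being the exception, beside 18.5% and 8.83% of all genes (9.93% and 5.30% up). Nos2 was near 0 in this comparison (-0.12, SE 0.22; edgeR, adjusted p = 0.729), and its sign turned without TMM factors (0.14).

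The third comparison set LYS-High skin against control skin. It shares its libraries with the comparisons above, so its values are not independent of them. Arg1 was still 8.92-fold higher than in control skin (log2 fold change 3.16, SE 0.67; edgeR, adjusted p = 0.0114), and Nos2 was 1.66-fold higher (0.73, SE 0.23; adjusted p = 0.0474 by edgeR). These were the 2 members called, beside 28.0% of the 16003 genes tested (15.1% up). All 3 LYS-High libraries exceeded all controls in both genes, and the groups did not overlap in 50.3% of all genes tested. The Arg1 call was lost without Control 2, with an adjusted p of 0.0530 by edgeR, and the Nos2 call was lost when any 1 of the 6 libraries was left out. The 8 macrophage genes had log2 fold changes from 0.37 for Mrc1 to 1.14 for Adgre1 (SE 0.34 and 0.41; edgeR, adjusted p = 0.433 and 0.0665), and in each the groups overlapped. Without LYS-High 1, edgeR called all 8 macrophage genes higher than in control skin, together with Arg1 at 2.23, beside 28.9% of all genes (15.5% up). Adgre1 was also called higher with all libraries kept, by DESeq2, by the fit of all 9 libraries and by the fit without the low-count filter. Beside it, these called 5104 of 28132 genes with a p-value, 4583 of 16392 and 4794 of 28154.

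The ratio of each gene to Adgre1 in the same library gives a view that does not depend on the scaling. Mrc1 to Adgre1 was 0.908, 1.40 and 1.01 in FPKM in the controls, 0.599, 0.330 and 0.338 under IMQ and 0.639, 0.711 and 0.546 in LYS-High. All controls exceeded all libraries of both treated groups, whereas IMQ 1 lay within the LYS-High range. For C1qa the mean log2 ratio, taken on FPKM plus 1, was 2.50 ± 0.39 in the controls, 1.92 ± 0.22 under IMQ and 1.85 ± 0.16 in LYS-High (SD, n = 3). For Cd163 it was -0.71 ± 0.46, -1.51 ± 0.42 and -1.28 ± 0.10 in the same order (SD, n = 3). The ratios of C1qa thus lay at a similar level in both treated groups while the CPM of C1qa did not overlap between them.

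Arg1 to Adgre1 was 0.0729, 0.0793 and 0.109 in the controls, 1.92, 2.61 and 3.77 under IMQ and 1.35, 0.243 and 0.0657 in LYS-High. In this ratio LYS-High 1 was near the IMQ libraries and LYS-High 3 was below every control. LYS-High 3 had the highest Adgre1 of all libraries (156 FPKM), and its Arg1 itself, at 10.3 FPKM, exceeded that of every control (at most 5.47 FPKM). Arg1 to Nos2 was 7.86, 4.25 and 8.90 in the controls, 82.8, 82.3 and 99.3 under IMQ and 73.0, 26.0 and 10.8 in LYS-High, again with LYS-High 1 next to IMQ and LYS-High 3 next to the controls.

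**Figure D3:**
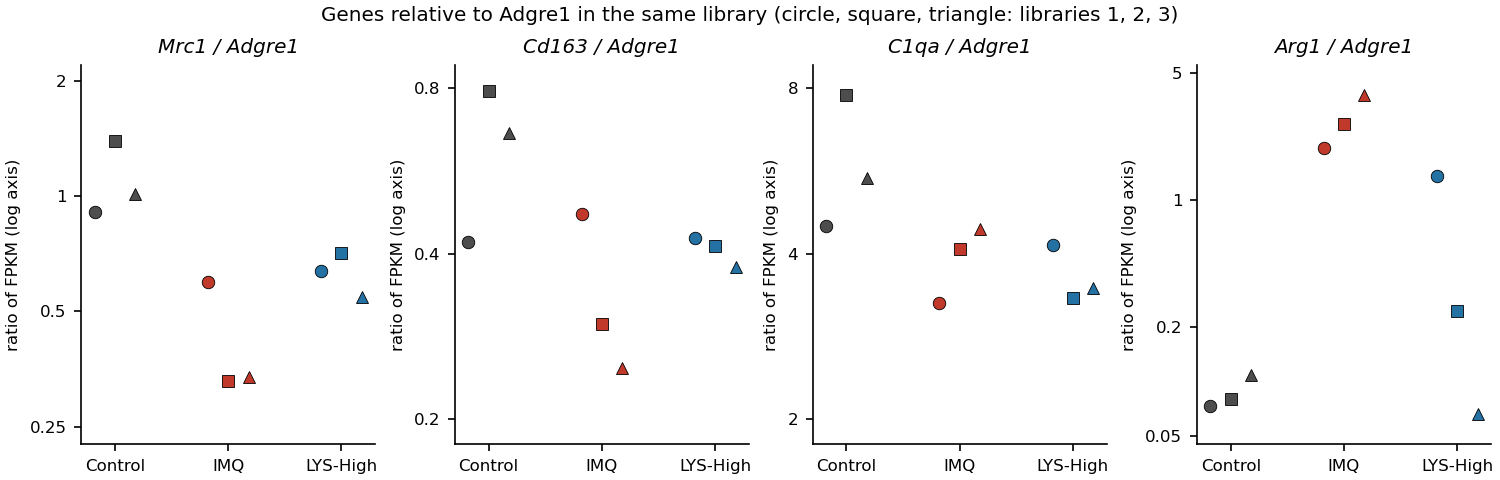
Ratio of the FPKM of Mrc1, Cd163, C1qa and Arg1 to that of Adgre1 in each library, on log axes that differ between panels. The control libraries are the highest for Mrc1, the IMQ libraries are the highest for Arg1 (1.92 to 3.77), and the LYS-High libraries spread from 0.0657 to 1.35 for Arg1.

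Among themselves the 8 macrophage genes varied together. Over the 9 libraries, Pearson's r of log2(CPM + 1) between pairs of them ranged from 0.637 to 0.995 with a median of 0.871, and from 0.442 to 0.986 after the group means were taken off. Arg1 correlated negatively with each of the 8, with r from -0.71 to -0.23, and from -0.82 to -0.64 after the group means were taken off. Nos2 had r from -0.475 to 0.160 with them, and from -0.224 to 0.575 (the latter with Cd68) after the group means were taken off. These libraries share groups, scaling and the position of LYS-High 1, so the values only describe how the libraries lay. By this measure Arg1 lay opposite to the macrophage genes in these samples, and Nos2 had no common sign with them.

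**Figure D4:**
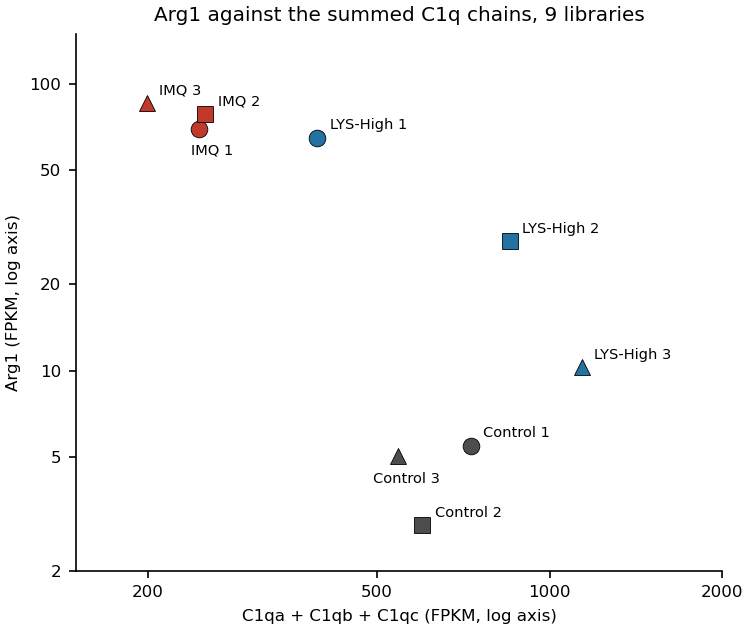
Arg1 against the sum of C1qa, C1qb and C1qc in the 9 libraries, in FPKM on log axes, with controls in grey, IMQ in red and LYS-High in blue. The IMQ libraries sit at 199 to 252 FPKM of C1q and the highest Arg1, and the LYS-High libraries run from 394 FPKM of C1q beside high Arg1 to 1138 FPKM beside low Arg1.

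C1qa lay closest to the other C1q chains, with r = 0.995 for C1qc and 0.989 for C1qb over the 9 libraries. With the 10 members left out, the closest to C1qa among 14754 genes with a mean of at least 1 CPM were Fam78a (r = 0.984), Arap1 (0.979) and Slc28a2 (0.974). Mrc1 was most like C1ra (0.992), a protease of the C1 complex, Sdk1 (0.991) and Ap2a2 (0.987). Arg1 was most like Ptk6 (0.996), an epithelial tyrosine kinase, Tgm5 (0.994), a transglutaminase of the epidermis, and Gfod1 (0.994). Nos2 was most like Diaph2 (0.987), Lamtor3 (0.984) and Rab31 (0.980), although Lamtor3 ranked 449 when FPKM was used in place of CPM.

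Other genes of these pathways were read from lists that leave the members out, and each count under IMQ stands beside the 24.1% of all genes tested that were called up and the 26.9% called down. Of the 13 genes of resident dermal macrophages, 11 fell under IMQ and none rose, with a median log2 fold change of -1.85. Among them were F13a1, the A subunit of coagulation factor XIII (-1.85; edgeR, adjusted p = 7.2e-04), Pf4, a platelet and macrophage chemokine (-1.79; 0.00204), Cbr2, a carbonyl reductase (-1.18; 8.0e-04) and Gas6, a bridging ligand in the uptake of dying cells (-0.87; 0.00439). The 20 broader monocyte and macrophage genes were divided, with 5 up and 3 down and a median of -0.17. Cd14, a co-receptor for lipopolysaccharide, rose by 4.15 and Tyrobp, a signalling adaptor of myeloid receptors, by 0.83, whereas Lyz2, the lysozyme of myeloid cells, fell by 0.67 on the log2 scale (edgeR, adjusted p = 2.8e-04, 0.0205 and 0.0395). Ctss, a lysosomal protease, was at -0.28 and did not pass.

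Of the 8 other genes at the start of the classical complement pathway, 7 fell under IMQ and none rose (median -1.14). C3, the central complement component, fell by 1.06, C4b by 1.49, C1s1, a protease of the C1 complex, by 1.03 and Serping1, the C1 inhibitor, by 1.27 on the log2 scale (edgeR, adjusted p = 0.0165, 0.00234, 0.00363 and 0.00313). Against IMQ skin, all 8 had higher means in LYS-High skin (median 1.51), with none called. Of the 6 tested ligands and receptors of the CSF family, 4 rose under IMQ, among them Csf3r (2.40) and Csf2rb (0.77; edgeR, adjusted p = 3.3e-05 and 0.00113), the receptor chains for G-CSF and for GM-CSF. Csf1, a ligand of the Csf1r receptor, was at -0.57, just inside the fold threshold and so not called (edgeR, adjusted p = 0.0142). Il34, which encodes the other ligand and was named after its values were seen, rose by 1.01 (edgeR, adjusted p = 0.00318).

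Around Arg1 and Nos2, 5 of 15 other arginine and polyamine genes rose under IMQ and 6 fell, and the counts only describe this list. Over all genes tested, 24.1% were called up and 26.9% down. Sat1, which acetylates polyamines, rose by 1.40 and Srm, spermidine synthase, by 0.74, whereas Oat, ornithine aminotransferase, fell by 0.95 on the log2 scale (edgeR, adjusted p = 2.7e-04, 0.00321 and 7.4e-04). Odc1, which decarboxylates the ornithine that arginase makes, was at -0.26 and did not pass. Of 10 tested genes used as markers of alternative activation, 6 rose and 3 fell. Klf4, a transcription factor also strongly expressed in epidermis, rose by 2.03 and Il4ra by 0.97 on the log2 scale (edgeR, adjusted p = 7.1e-05 and 0.00307). Retnla, which encodes a secreted resistin-like protein, and Tgm2, tissue transglutaminase, fell by 4.30 and 1.37 (edgeR, adjusted p = 8.5e-04 and 2.0e-04). Of 14 tested genes used as markers of classical activation, 8 rose and 1 fell (median 2.66), led in level by the cytokine gene Il1b (9.56; edgeR, adjusted p = 3.0e-05), whose mean was 1.41 CPM in the controls.

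**Figure D5:**
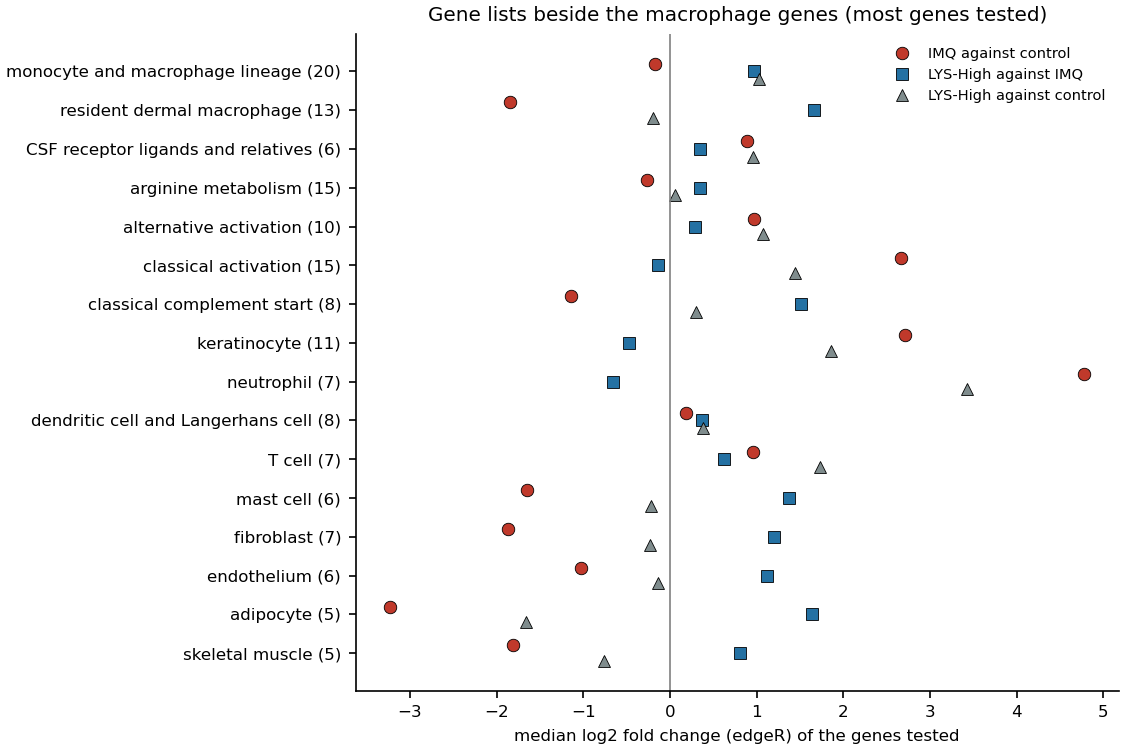
Median log2 fold change from edgeR of each gene list in the 3 comparisons, with the largest number of genes tested in brackets. Resident dermal macrophage genes and the start of the classical complement pathway lie below 0 under IMQ (-1.85 and -1.14) and above 0 between LYS-High and IMQ (1.66 and 1.51), as do fibroblast, endothelial, mast cell, adipocyte and muscle genes.

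Genes of other tissue parts moved with the members. Under IMQ, 10 of 11 keratinocyte genes rose and 1 fell, and their summed level went from between 5379 and 8992 CPM in the controls to between 48153 and 63191 CPM, with 21640 to 41901 CPM in LYS-High, where LYS-High 1 was the highest. Of 7 fibroblast genes 6 fell, and their sum went from between 21560 and 27435 CPM to between 3320 and 10613 CPM, with 9103 to 17554 CPM in LYS-High, where LYS-High 1 was the lowest. The endothelial sum (5 of 6 genes fell) was 345 to 495 CPM in the controls, 136 to 279 CPM under IMQ and 267 to 522 CPM in LYS-High. Mast cell, adipocyte and skeletal muscle genes, 16 in all, were each called lower under IMQ, and the 4 tested hair follicle keratins, summing to at least 1693 CPM in every control, summed to at most 0.911 CPM in the IMQ and LYS-High libraries. Of 7 neutrophil genes 5 rose and 1 fell (Mpo, the myeloperoxidase gene, named after its values were seen), 4 of 7 T cell genes rose and none fell, and dendritic and Langerhans cell genes rose in 3 and fell in 1 of 8. LYS-High 1 and IMQ 1, the libraries whose removal brought calls between LYS-High and IMQ, were thus the lowest and the highest of their groups in fibroblast and endothelial sums as well as in Mrc1 and Cd163. The part of these tissue differences in the changes of the macrophage genes, Arg1 and Nos2 was not tested.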

How the data were processed

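RNA of 9 back skin samples was sequenced by the authors after TRIzol extraction and NEBNext Ultra library preparation. The authors deposited 1 table with raw read counts and FPKM of 29205 genes, and the submitters' processing notes name HISAT2, HTSeq 0.13.5 and GRCm38. The deposited FPKM values could be rebuilt to within 0.1% from the counts, 1 length per gene and the library's summed counts. Samples were grouped by their titles, and no pair within a group looked like a single library deposited again, since their chi-square statistics over genes were 12.6 to 71.4 times the degrees of freedom. The summed counts were 14658645 to 19609878 a library, which left Nos2 with the fewest counts of the members. Counts were compared with edgeR 4.0.16 in R 4.3.3 (TMM, filterByExpr, two-sided quasi-likelihood test, Benjamini-Hochberg adjustment over all genes tested), with the 6 libraries of the compared groups in each fit and no replicate block. Calls needed an adjusted p below 0.05 with a log2 fold change beyond 0.58 in either direction, as in the study's methods. The script was tested on simulated counts in which 200 genes were changed. For IMQ against control, LYS-High against IMQ and LYS-High against control, edgeR recovered 83%, 67% and 84% of them. It also called 23, 12 and 14 unchanged genes in that order. The simulated spread was that of the reference group, so the wider spread of LYS-High was not simulated. Alternatives were DESeq2 1.42.0, other scalings, no low-count filter, all 9 libraries in 1 fit, the replicate number as a block, a log2 fold change over 1, a pseudocount of 0.1 for the ratios, and each library left out. SE is the log2 fold change over the root of the F statistic. Positions came from GENCODE M21 and upstream windows from RefSeq (GRCm38.p6), trimmed at the earlier annotated start.

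The 10 genes and the 17 other lists (159 genes) were chosen with earlier results of these data known, so their counts are descriptions. Apart from Mpo and Il34, genes named from each list were the 4 with the highest mean FPKM, not all of which are printed. For C1qa, Mrc1, Arg1 and Nos2 the 3 genes with the highest r were named. Other measurements of the study were not used here.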

Additional observations from a re-analysis of the deposited data

How the results depend on the processing

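Between IMQ and control, 4 members and 5772 of 15976 genes tested were called at an absolute log2 fold change over 1. With a library left out, 6 to 7 members and 7372 to 8894 genes were called, of 16298 to 16501 tested. Csf1r was also called with upper-quartile scaling, and without TMM factors the calls of all genes went from 3854 up and 4291 down to 2390 up and 6854 down. Between LYS-High and IMQ, DESeq2 called 8 members and 3313 genes (21.0% of those with an adjusted p). The fit without a low-count filter called 7 and 2419 (8.83% of genes tested), and the fit of all 9 libraries 7 and 3040 (18.5%). Leaving out a library gave 0 to 9 members and 0 to 4262 genes there, with 1873 genes (11.8%) without IMQ 1 and 4262 (26.8%) without LYS-High 1. The difference of Nos2 reversed to 0.14 without TMM factors. Between LYS-High and control, 1 member was called with upper-quartile scaling, without scaling, with the replicate block and at a log2 fold change over 1. Beside it stood 4777, 4623, 3126 and 2910 genes called in the same order, of 16003 tested. DESeq2 and the fit of all 9 libraries called 3 members (Adgre1, Arg1 and Nos2), beside 5104 and 4583 genes. Without a low-count filter 2 were called (Adgre1 and Arg1), beside 4794 genes. Leaving out a library gave 0 to 9 members and 2579 to 5072 genes, of 16318 to 16447 tested. The cause of these changes was not tested, apart from the fewer libraries and genes that the settings themselves bring.

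Samples with the same number correlated from -0.46 to 0.20 in their deviations from the group means and those with different numbers from -0.29 to 0.47. Same-number samples were thus not more alike, but 3 libraries a group are too few to settle whether the numbers pair the samples. With the replicate block, 8044, 0 and 3126 genes were called in the 3 comparisons, in the order IMQ against control, LYS-High against IMQ and LYS-High against control, and the call of Nos2 in the last was lost. Each single-gene result was counted once per alternative setting, so the same gene enters many times. Of these values, 390 kept their direction and side of the threshold or moved by less than 1 SD. Another 48 passed the threshold only under the alternative, 17 lost it, 1 reversed and 3 ratios of Nos2 to Adgre1 moved with the pseudocount. Depth limited Nos2 most, at 43 to 81 counts a library.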
